A study of Homo sapiens with 30 samples.

Results

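The effect of miR-1 overexpression on gene expression was examined in MV4-11, a human acute myeloid leukemia (AML) cell line that carries an internal tandem duplication of the receptor FLT3. The members are all 17542 of the 60675 genes in the count table that passed an expression filter over 12 MV4-11 and Molm-14 libraries. They were compared between 3 miR-1 OE libraries and 3 EV libraries of the 30 libraries in the whole series. MV4-11 OE cells were transduced with a lentiviral vector in which the EF1α promoter drives GFP together with MIR1-2 host gene sequence, and MV4-11 EV cells with the same kind of vector carrying GFP and no miRNA. Both groups thus share the FLT3 duplication, transduction and GFP, and they differ in the labels by treatment alone. The labels do not say whether libraries of a group came from separate infections or cultures. The p-values thus measure a spread between libraries, which may be technical. The fit estimated this spread over all 12 MV4-11 and Molm-14 libraries and not over MV4-11 alone. Molm-14, a line with the same FLT3 lesion, had the same vectors with 3 OE and 3 EV libraries and is used here to ask where the MV4-11 effect differs between lines.

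A miRNA is a short RNA that guides Argonaute proteins to messenger RNAs, mostly through pairing between bases 2 to 8 of the miRNA, the seed, and a matching site in the 3′ UTR, which lowers the stability and translation of the message. miR-1 is best known from heart and skeletal muscle, where it is abundant and restrains genes of other lineages, and it is made from the hairpins MIR1-1 and MIR1-2. Effects of a miRNA on single messages are usually small. In bulk libraries, fewer cells of a type and less RNA per cell cannot be told apart.

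The mature miR-1-3p is printed first because its seed sets which sites were searched. It was taken from RefSeq (GRCh38.p14), with the seed in capitals. Below it stand sites in the 3′ UTR of called genes that hold a match to seed bases 2 to 8, from GENCODE transcripts on GRCh38 and written as the messenger strand with the match in capitals. An 8mer is ACATTCCA, a 7mer-m8 is ACATTCC, and a 7mer-A1 is CATTCCA. The site in KDM5C, a histone demethylase gene that the study named as a target, is given beside them, although KDM5C was not called.
miR-1-3p: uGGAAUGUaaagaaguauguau
DIPK1C 8mer: cacaaactgacACATTCCAaatggtct
MPEG1 8mer: ccaagaaaaccACATTCCAtggactat
KIAA0040 8mer: ctcataattggACATTCCAgcaacctg
THSD7A 8mer: agtctttgttcACATTCCAcaccacaa
SLC5A3 7mer-m8: tcttgcaaagtACATTCCtttctgtg
SLC39A10 7mer-m8: ttttggctccaACATTCCttttagct
KDM5C 7mer-A1: tgggccatcacCATTCCAgagacaag

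The capitals lie at chr18:74435148-74435155 in DIPK1C, chr11:59208628-59208635 in MPEG1, chr1:175160084-175160091 in KIAA0040 and chr7:11371654-11371661 in THSD7A, all on the minus strand. They lie at chr21:34106159-34106165 in SLC5A3 and chr2:195737257-195737263 in SLC39A10, both on the plus strand, and at chrX:53192654-53192660 in KDM5C, on the minus strand. A match describes letters and is not evidence of binding. THSD7A, which holds an 8mer, was higher in OE, whereas the other 5 called genes listed here were lower.

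The libraries had 16117779 to 20219790 counts. Of the AML blast markers, FLT3 stood at 437 to 556 CPM (counts scaled to a common library total) and CD33 at 154 to 174 CPM in all 6 libraries, and 0 counts were found for each of the 5 erythroid markers. The summed T cell markers reached at most 0.766 CPM and the muscle markers at most 1.06 CPM. Of the B cell markers, MS4A1 had 0 counts, and PAX5 stood at 9.38 CPM in OE 1 against 1.67 to 2.83 CPM in the other libraries. Of the fibroblast and epithelial markers only KRT18 was above 1 CPM, at 12.7 to 15.8. The libraries OE 1 and EV 3 stood apart from the other 4 on the first principal component (37.3% of the variance, at −39.9 and −27.1 against 10.2 to 24.3), and the second (19.1%) separated OE from EV. The number of called genes and most list results are also given without these 2 libraries.

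To check the labels, the manipulated transcript was examined first. MIR133A1HG, the lncRNA that holds MIR1-2, had 2.63, 2.58 and 4.06 CPM in OE 1 to 3 and 0 counts in all EV libraries. Pooled over the group and against a floor of 3 counts, which covers counting error only, it was at least 56.6-fold higher in OE (edgeR FDR 8.59e-06). MIR1-1 and MIR1-2 themselves had 0 counts throughout, and mature miRNAs are too short for these libraries. MIB1, which overlaps MIR133A1HG on the other strand, stood at 164 ± 1.97 CPM in OE and 158 ± 2.47 CPM in EV (SD, n = 3; edgeR FDR 1). MPC1, a subunit of the mitochondrial pyruvate carrier that the study deletes in its other experiment, stood at 31.9 ± 3.05 CPM in OE and 29.6 ± 3.16 CPM in EV (edgeR FDR 1).

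At a 5% false discovery rate (FDR) 31 genes, 0.177% of those tested, were called in MV4-11. Of these, 9 were higher in OE (0.0513%) and 22 were lower (0.125%), and 29 were protein coding. A log2 fold change of at least 1 in size was found for 18 of the 31, of which 14 were lower and 4 were higher. The called genes lay on 16 chromosomes, with at most 4 on any one. Their CPM did not overlap between OE and EV in 31 of 31 cases, beside 9.17% of all tested genes. The same libraries chose these genes, so the lack of overlap describes the calls and is no separate support. At an unadjusted p under 0.05 there were 541 higher (3.08%) and 494 lower genes (2.82%), together 5.9%. In fits that left out 1 library at a time, 12 of the 31 were called in all 6 fits, 2 in 5, 8 in 3 or 4, and 9 in fewer than 3. With the 6 MV4-11 libraries fitted alone 9 genes were called, 8 of them among the 31 in the same direction, namely MPEG1, C12orf75, DIPK1C, MIR133A1HG, IL7R, MAGED1, PPP1R3A and FAM30A. In that fit 16089 genes passed the expression filter, and ADAMTS9 and KIAA0040 did not. Replicate pairs of Molm-14, which share the fit over all 12 libraries, differed less than those of MV4-11 (chi-square per degree of freedom 2.09 to 3.05 against 5.09 to 15.8). DESeq2 called 68 genes (0.388%). Without both OE 1 and EV 3, 76 genes (0.425%) were called, and 26 of the 31 were among them in the same direction. The 5 that were not were GSN (FDR 0.128), KIAA0040 (0.0882), APOL4 (0.0634), MCUB (0.0548) and CNKSR2 (0.0503). The MV4-11 EV libraries of the study's MPC1 knockout experiment gave a second baseline, available for 30 of the called genes. It differed from the present EV level by at least 1 log2, in either direction, for 18 of the 30 (60.0%). The share was 32.1% over 14253 tested genes with at least 1 CPM in both experiments, a filter to which the 30 were not held. SIX2, ADAMTS9, KIAA0040, FAM30A, CNKSR2, HCN2 and GLT1D1 had an EV level below 1 CPM in at least 1 experiment. Each of them differed by at least 1 log2, so the 2 shares are not on the same footing. For 16 of the 30 the difference was larger in size than the OE effect, and its cause was not tested. The called genes are described below by what they are known to do, in groups formed after the calls were known and not tested as groups.

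**Figure D1:**
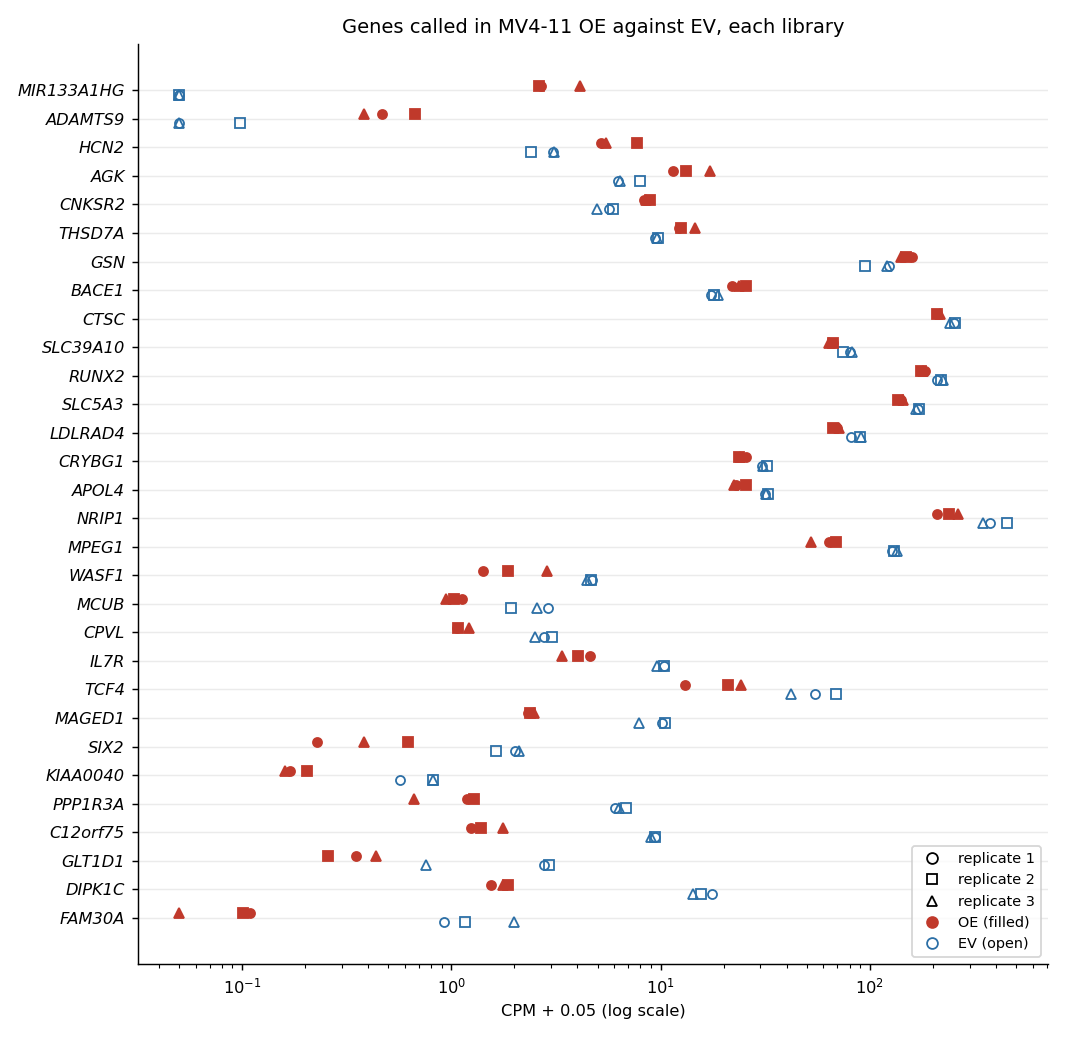
CPM (plus 0.05, log axis) of 30 of the 31 called genes in each MV4-11 library, with OE as filled red points, EV as open blue points and a marker shape for each replicate number. Genes are ordered by log2 fold change, and for every gene the 3 OE points lie to one side of the 3 EV points, for example MPEG1 at 52.5 to 69.0 CPM in OE and 128 to 134 CPM in EV.

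Among the 22 lower genes are MPEG1, CPVL, IL7R and CTSC, which are known from myeloid or lymphoid immune cells. The listed genes of myeloid identity did not share this direction, with 14 of 17 tested having a positive fold change (median 0.102) and none called. MPEG1 (ENSG00000197629, chromosome 11, 59208510 to 59212927, minus strand), which encodes perforin-2, a pore-forming protein of macrophages, stood at 63.6, 69.0 and 52.5 CPM in OE and at 128, 130 and 134 CPM in EV. Each OE library was thus about level with the others and well below each EV library, OE 1 and EV 3 included (log2 fold change −1.08, SE 0.0794, edgeR FDR 2.86e-07). DTX4, which overlaps the end of MPEG1 on the other strand, had a log2 fold change of −0.22 and was not called (edgeR FDR 0.681). CPVL, a serine carboxypeptidase gene expressed in monocytes and macrophages, stood at 1.02, 1.03 and 1.17 CPM in OE and at 2.72, 2.99 and 2.47 CPM in EV (log2 fold change −1.35, SE 0.161, edgeR FDR 2.40e-04). IL7R, the interleukin 7 receptor alpha chain, stood at 4.54, 3.98 and 3.33 CPM in OE and at 10.3, 10.3 and 9.60 CPM in EV (log2 fold change −1.35, SE 0.161, edgeR FDR 2.40e-04). These 3 genes were called in all 6 fits that left out 1 library, but CPVL was not called with the MV4-11 libraries alone (FDR 0.186). CTSC, which encodes cathepsin C, the protease that activates the granule serine proteases of myeloid cells, was lower by a smaller margin, at 210, 208 and 216 CPM in OE and 252, 256 and 241 CPM in EV (log2 fold change −0.24, SE 0.0443, edgeR FDR 0.0287). Its FDR rose to 0.134 without OE 2, 0.126 without EV 1 and 0.12 without EV 2.

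Another 4 of the lower genes encode transcription factors or a cofactor. TCF4, an E protein of plasmacytoid dendritic and B cell development, stood at 13, 21.0 and 24.1 CPM in OE and at 54.7, 69.1 and 41.9 CPM in EV. The lowest level of each group was in OE 1 and EV 3, the libraries that stood apart, and without both its log2 fold change was −1.46 (edgeR FDR 3.02e-11). Over all libraries it was −1.51 (SE 0.225, edgeR FDR 0.0465), and the call was lost without OE 2 (FDR 0.185), EV 1 (0.147) or EV 2 (0.051). TCF4 was also not called with the MV4-11 libraries alone (edgeR FDR 0.709) or with no expression filter (0.0544). RUNX2, a Runt factor of bone that is also expressed in blood cells, stood at 184, 175 and 180 CPM in OE and at 208, 219 and 224 CPM in EV (log2 fold change −0.27, SE 0.0489, edgeR FDR 0.0226). NRIP1, a corepressor of nuclear receptors, stood at 208, 238 and 264 CPM in OE and at 375, 452 and 347 CPM in EV (log2 fold change −0.73, SE 0.0932, edgeR FDR 0.00522), and it lost its call without OE 2 (FDR 0.0882). SIX2, a homeobox factor of kidney progenitors, stood at 0.179, 0.568 and 0.333 CPM in OE and at 1.97, 1.59 and 2.06 CPM in EV (log2 fold change −2.32, SE 0.315, edgeR FDR 0.00102). SIX2 kept its call when any 1 library was left out but not with the MV4-11 libraries alone (FDR 0.125), whereas RUNX2 lost it without OE 2 (FDR 0.134), OE 3 (0.0708), EV 2 (0.0813) or EV 3 (0.0585).

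A further 4 lower genes belong to transport or metabolism. SLC5A3, the sodium and myo-inositol cotransporter, is the 7mer-m8 gene shown above and stood at 141, 136 and 144 CPM in OE and at 170, 172 and 166 CPM in EV. That is 82.9% of the EV level. MRPS6, whose annotated span contains SLC5A3 on the same strand, had a log2 fold change of −0.21 (edgeR FDR 0.52), so reads of both could be mixed. SLC39A10, a zinc importer with 3 seed matches, stood at 66.6, 66.4 and 63.5 CPM in OE and at 80.5, 74.3 and 81.8 CPM in EV. MCUB, the inhibitory subunit of the mitochondrial calcium uniporter, stood at 1.08, 0.981 and 0.889 CPM in OE and at 2.84, 1.88 and 2.53 CPM in EV (log2 fold change −1.29, SE 0.242, edgeR FDR 0.0319). PPP1R3A, the subunit that brings protein phosphatase 1 to glycogen in muscle, stood at 1.14, 1.24 and 0.611 CPM in OE and at 6.02, 6.75 and 6.30 CPM in EV (log2 fold change −2.67, SE 0.341, edgeR FDR 5.24e-04). PPP1R3A was called in all 6 fits that left out 1 library. SLC5A3 was not called without OE 2 (FDR 0.134), EV 1 (0.0924) or EV 2 (0.0885), SLC39A10 without OE 2 (0.1), OE 3 (0.129), EV 1 (0.153) or EV 3 (0.0887), and MCUB without OE 2 (0.134), OE 3 (0.104), EV 1 (0.147) or EV 3 (0.0585).

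WASF1 and GSN, which encode proteins that act on actin, were called in opposite directions, while none of the 7 tested actin cytoskeleton genes among miR-1 targets from the literature was called. WASF1, a subunit of the WAVE complex that drives actin branching, stood at 1.37, 1.81 and 2.83 CPM in OE and at 4.63, 4.58 and 4.42 CPM in EV (log2 fold change −1.17, SE 0.174, edgeR FDR 0.00301), and it was called in all 6 fits that left out 1 library but not with the MV4-11 libraries alone (FDR 0.366). GSN, which encodes the actin-severing protein gelsolin, was higher, at 158, 149 and 141 CPM in OE and 123, 94.2 and 120 CPM in EV (log2 fold change 0.41, SE 0.0771, edgeR FDR 0.04). Its call was lost without OE 1 (FDR 0.118) or OE 2 (0.176), and without OE 1 and EV 3 together (0.128). CRYBG1, a crystallin-domain gene that was lower, stood at 25.6, 23.7 and 23.8 CPM in OE and at 30.3, 32.1 and 30.9 CPM in EV (log2 fold change −0.35, SE 0.0575, edgeR FDR 0.00824). It was not called without OE 2 (0.07) or EV 2 (0.0506).

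By log2 fold change, the 5 largest falls among called genes were those of FAM30A (−4.89, a fitted value that rests on 2 counts in OE), DIPK1C, GLT1D1 (−2.81), C12orf75 and PPP1R3A, all at 17.5 CPM or less in each EV library. DIPK1C, a gene of the divergent protein kinase family that holds an 8mer, stood at 1.49, 1.81 and 1.72 CPM in OE and at 17.5, 15.5 and 14.3 CPM in EV. C12orf75 stood at 1.19, 1.34 and 1.72 CPM in OE and at 9.32, 9.36 and 8.95 CPM in EV (log2 fold change −2.69, SE 0.2, edgeR FDR 2.86e-07). MAGED1, an adaptor of the MAGE family, stood at 2.27, 2.32 and 2.44 CPM in OE and at 10.1, 10.4 and 7.84 CPM in EV. All 3 were called whichever library was left out, and in each the OE libraries were close to one another and far below the lowest EV library. The log2 fold change of DIPK1C was −3.23 (SE 0.198, edgeR FDR 2.86e-07).

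KIAA0040, with an 8mer, had 7 counts in all OE libraries and 38 in all EV libraries (log2 fold change −2.35, SE 0.392, edgeR FDR 0.00997), and its FDR was 0.0614, 0.057 and 0.051 without OE 2, OE 3 and EV 2. FAM30A, a lncRNA gene in the immunoglobulin heavy chain locus, had 2 counts in OE and 71 in EV, a ratio of 34.9 with a 95% counting interval of 9.32 to 294. Its call was lost without OE 2 (edgeR FDR 0.0792), and DESeq2 gave it no adjusted p. The nearby IGHM had a log2 fold change of −2.40 and was not called (edgeR FDR 0.157). GLT1D1 stood at 0.299, 0.207 and 0.389 CPM in OE and at 2.72, 2.89 and 0.707 CPM in EV, where EV 3 lay near the OE libraries, and with 1 library left out it was called only when that library was EV 3. APOL4, an apolipoprotein L gene whose close paralogs make its counts uncertain, stood at 22.3 to 25.4 CPM in OE and 31.5 to 32.6 CPM in EV, and it was called in none of the 6 (FDR 0.0722 to 0.181). LDLRAD4, an inhibitor of TGF-β signalling, stood at 66.5 to 71.4 CPM in OE and 81.1 to 90.3 CPM in EV, with an FDR of 0.176, 0.0515, 0.143 and 0.0785 without OE 2, OE 3, EV 2 and EV 3.

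Among the rises, AGK, a mitochondrial acylglycerol kinase that also belongs to an inner membrane protein import complex, stood at 11.4, 13.1 and 17.1 CPM in OE and at 6.20, 7.96 and 6.36 CPM in EV, and it was called in all 6 fits that left out 1 library but not with the MV4-11 libraries alone (FDR 0.14). HCN2, a pacemaker channel subunit listed among miR-1 targets from heart, stood at 5.14, 7.64 and 5.44 CPM in OE and at 3.01, 2.36 and 3.06 CPM in EV (log2 fold change 1.12, SE 0.213, edgeR FDR 0.034). HCN2 therefore was higher where the miRNA was raised, and it was not called without OE 2 (FDR 0.188), EV 1 (0.0924) or EV 2 (0.181). CNKSR2, a scaffold of Ras signalling, stood at 8.24, 8.83 and 8.50 CPM in OE and at 5.62, 5.88 and 4.89 CPM in EV. THSD7A, a membrane protein gene with thrombospondin repeats, stood at 12.2, 12.4 and 14.6 CPM in OE and at 9.38, 9.65 and 9.54 CPM in EV. BACE1, the beta-secretase gene, stood at 21.8, 25.5 and 23.6 CPM in OE and at 17.4, 18 and 18.7 CPM in EV (log2 fold change 0.39, SE 0.0774, edgeR FDR 0.0444). With 1 library left out at a time, the call was lost in 3 of 6 cases for CNKSR2 (highest FDR 0.105, without OE 2), 5 for THSD7A (0.166, without OE 3) and 4 for BACE1 (0.221, without OE 2).

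ADAMTS9, a secreted metalloprotease gene, had 25 counts over the OE libraries and 1 over the EV libraries, a ratio of 25.4 with a 95% counting interval of 4.16 to 1040 (edgeR FDR 0.00381). It stood at 0.418, 0.620 and 0.333 CPM in OE. In Molm-14 the same gene stood at 56.8 CPM in OE and 56.9 CPM in EV, so the MV4-11 OE level was 0.804% of the Molm-14 OE level. A set of 25 genes, chosen after the data were seen for at least 20 CPM in every Molm-14 library and at most 0.1 CPM on average in MV4-11 of the study's knockout experiment, had a summed level of 3.41, 3.72 and 3.50 CPM in the MV4-11 OE libraries and of 1.80, 1.54 and 0.825 CPM in the EV libraries. The sum, which does not include ADAMTS9, was higher in each OE library than in each EV library, but single genes varied, with 18 of the 25 higher in OE when pooled over the group, 4 lower and 3 at 0 counts. Each OE library lay above each EV library for 8 of the 25, beside 9.17% of all tested genes with no overlap in either direction. Few reads underlie this, since counts summed over the 25 genes were 57, 72 and 63 in OE and 31, 32 and 14 in EV. ADAMTS9 itself does not meet the rule of this set. In MV4-11 of the knockout experiment it stood at 0.335 ± 0.349 CPM in EV and 0.566 ± 0.315 CPM in knockout cells (SD, n = 3). Reads of Molm-14 libraries assigned to MV4-11 libraries would fall on genes high in Molm-14, and their part in the ADAMTS9 counts was not tested.

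Whether genes with seed matches were lower in OE was examined over the 12570 tested genes with a 3′ UTR, of which 1643 (13.1%) hold an 8mer or 7mer-m8. Of the 21 lower genes with a 3′ UTR (0.167% of these genes), 5 hold such a site, which is 23.8%. Of the 8 higher ones 1 does. The median log2 fold change was 0.00685 over 669 genes with an 8mer, 0.0111 over 974 with a 7mer-m8, 0.00802 over 1106 with a 7mer-A1 and 0.0126 over 1746 with a 6mer, beside 0.0147 over 8075 genes with none. The share of genes with a negative fold change was 46.3% for 8mer genes and 43.2% for those with none. Genes with 3 or more 7mer or 8mer sites, of which 167 were tested, had a median of 0.00653. Between the classes the medians differed by at most 0.00785. Of the 1106 genes with a 7mer-A1 as their best match, 0 were called by edgeR, 62 had an unadjusted p under 0.05 there (5.61%, beside 5.9% of all tested genes), and 7 were called by DESeq2 (0.633%, beside 0.388%).

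**Figure D2:**
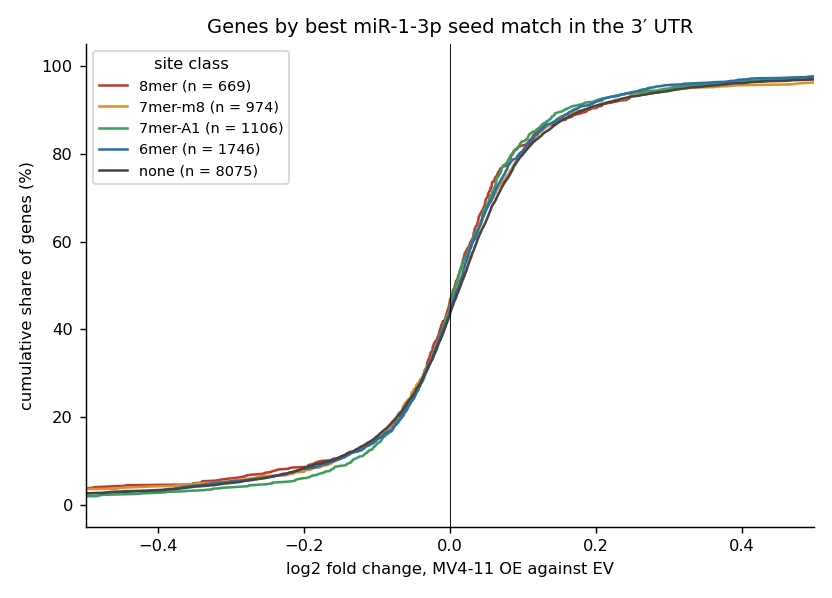
Cumulative share of genes (%) against log2 fold change in MV4-11 OE, drawn for each class of best miR-1-3p seed match in the 3′ UTR, with the axis limited to −0.5 to 0.5. The 5 curves nearly coincide, with medians between 0.00685 for 8mer genes and 0.0147 for genes with no match.

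Targets of miR-1 known from other tissues were described as a list of 53 genes, of which 38 were tested. Only HCN2 was called, 21 of the 38 had a positive and 17 a negative fold change, and the median was 0.0282, beside 0.00693 and 52.5% positive over all tested genes. At an unadjusted p under 0.05 in edgeR there were 7 of the 38 (18.4%, beside 5.9% of all tested genes). Without OE 1 and EV 3 together, 27 of 39 tested had a positive fold change (median 0.0462). Of the 24 with an 8mer or 7mer-m8, 14 had a positive and 10 a negative fold change. TMSB4X, the actin-binding thymosin beta 4 with an 8mer, stood at 596, 613 and 568 CPM in OE and 568, 518 and 580 CPM in EV (edgeR FDR 0.884). HSPD1, the mitochondrial chaperonin with a 7mer-m8, stood at 597, 748 and 686 CPM in OE and 729, 730 and 645 CPM in EV (edgeR FDR 1), and TKT, a pentose phosphate enzyme, had a log2 fold change of 0.04 (edgeR FDR 1). In both genes the groups overlapped. BCL2, the antiapoptotic gene, and CCND1, cyclin D1, are named after their values were seen. BCL2 had a log2 fold change of −0.12 (edgeR FDR 0.723). CCND1 stood at 10.3, 8.93 and 8.44 CPM in OE and at 5.21, 3.95 and 6.19 CPM in EV and missed the threshold (log2 fold change 0.86, edgeR FDR 0.0667), whereas its adjusted p was 0.0149 without OE 1 and EV 3 and 0.0077 with DESeq2. Its edgeR FDR was 0.366 with the MV4-11 libraries alone, 0.336 without EV 2, 0.229 without EV 1 and 0.176 without OE 2.

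KDM5C stood at 60.5, 59.4 and 58.6 CPM in OE and at 76.0, 65.0 and 75.4 CPM in EV, with no overlap and 82.5% of the EV level in OE. It missed the threshold (log2 fold change −0.28, SE 0.0601, edgeR FDR 0.0698). It passed with DESeq2 (adjusted p 0.0204), with no expression filter (0.00452) and without EV 2 (0.00974), and the FDR reached 0.64 when the MV4-11 libraries were fitted alone.

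The 14 genes of miRNA processing and silencing had a median log2 fold change of −0.0173, with 4 positive, 10 negative and none called by edgeR or DESeq2 (1 at an unadjusted p under 0.05, AGO2, beside 5.9% of all tested genes). AGO2, the Argonaute that can cleave its target, stood at 299, 271 and 285 CPM in OE and at 263, 254 and 273 CPM in EV (log2 fold change 0.11, edgeR FDR 0.774). XPO5, which exports miRNA precursors from the nucleus, stood at 166 to 169 CPM in OE and 167 to 171 CPM in EV.

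OXPHOS genes were described because the study's question was how miR-1 affects mitochondrial metabolism. None of the 76 nuclear subunits was called by edgeR or DESeq2, with 4 at an unadjusted p under 0.05 (5.26%, beside 5.9% of all tested genes), and 55 had a positive fold change (72.4%, beside 52.5%). The count by complex was 25 of 37 for complex I, 2 of 4 for complex II, 6 of 9 for complex III, 11 of 11 for complex IV and 11 of 15 for complex V, with medians from 0.0228 for complex I to 0.0619 for complex IV. ATP5F1B, the catalytic beta subunit of ATP synthase, stood at 667, 771 and 744 CPM in OE and at 739, 717 and 691 CPM in EV, and NDUFS1, the largest subunit of complex I, at 224, 247 and 232 CPM and 232, 235 and 230 CPM. In both the lowest OE value was in OE 1. Mean log2 CPM over the list was 5.88, 6.19 and 6.10 in OE 1 to 3 and 6.10, 6.03 and 5.96 in EV 1 to 3, so the lowest library of each group was again OE 1 or EV 3. Without OE 1 the number of positive subunits was 75 of 76 (median 0.113), and ATP5PO, a stalk subunit of ATP synthase, was called there (log2 fold change 0.314, FDR 0.0466). The median was −0.0248 without OE 2. Without EV 3 the number was 39 of 76 (median 0.000561), and without both it was 72 of 76 (median 0.0776) with none called by edgeR.

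Of the 13 subunits encoded by the mitochondrial genome, 12 had a negative fold change (median −0.142). None was called by edgeR or DESeq2, and none had an unadjusted p under 0.05 in edgeR. MT-CO2, a core subunit of complex IV, stood at 2490, 4850 and 3660 CPM in OE and at 4150, 4520 and 3750 CPM in EV. MT-ND4, of complex I, stood at 2380, 5030 and 3450 CPM in OE and at 4010, 4790 and 3360 CPM in EV, so OE 1 was low and OE 2 high for both. Without OE 1 all 13 had a positive fold change (median 0.0709), without EV 3 none did (median −0.207), and without OE 1 and EV 3 together 7 of 13 did (median 0.00242).

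The other 5 metabolic lists held 1 called gene, SLC5A3, by edgeR and by DESeq2, and 3 of their 97 tested genes had an unadjusted p under 0.05 in edgeR (3.09%, beside 5.9% of all tested genes). In the TCA cycle and pyruvate entry list 22 of 30 fold changes were positive (median 0.0314). Citrate synthase (CS) stood at 360, 418 and 405 CPM in OE and at 391, 386 and 354 CPM in EV. In glycolysis 13 of 22 were positive (median 0.0414), with GAPDH at 2290, 2490 and 2410 CPM in OE and 2360, 2170 and 2340 CPM in EV. In glutamine metabolism 10 of 19 were positive (median 0.0178), and the glutamine transporter SLC1A5 stood at 378, 365 and 302 CPM in OE and 331, 287 and 391 CPM in EV. In glutathione and thiol metabolism 15 of 20 were positive (median 0.0511), among them TXNIP, the thioredoxin inhibitor, at 248, 221 and 233 CPM in OE and 197, 210 and 214 CPM in EV (log2 fold change 0.18, edgeR FDR 0.478). CPM did not overlap between OE and EV for 8 of the 97 genes (8.25%, beside 9.17% of all tested genes), TXNIP and SLC5A3 among them. Without OE 1 and EV 3 together, 26 of 30 fold changes were positive in the TCA list (median 0.0667) and 17 of 22 in glycolysis (0.0567). In that fit 14 of 19 were positive in glutamine metabolism (0.0347), 15 of 20 in glutathione and thiol metabolism (0.0808) and 4 of 6 in myo-inositol metabolism (0.0442). Only SLC5A3 was called there. Of the 6 tested genes of myo-inositol metabolism, the 4 of synthesis and use had positive fold changes of at most 0.07, and IMPA1, an inositol monophosphatase, stood at 45.0 to 53.3 CPM in OE and 44.7 to 48.1 CPM in EV.

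**Figure D3:**
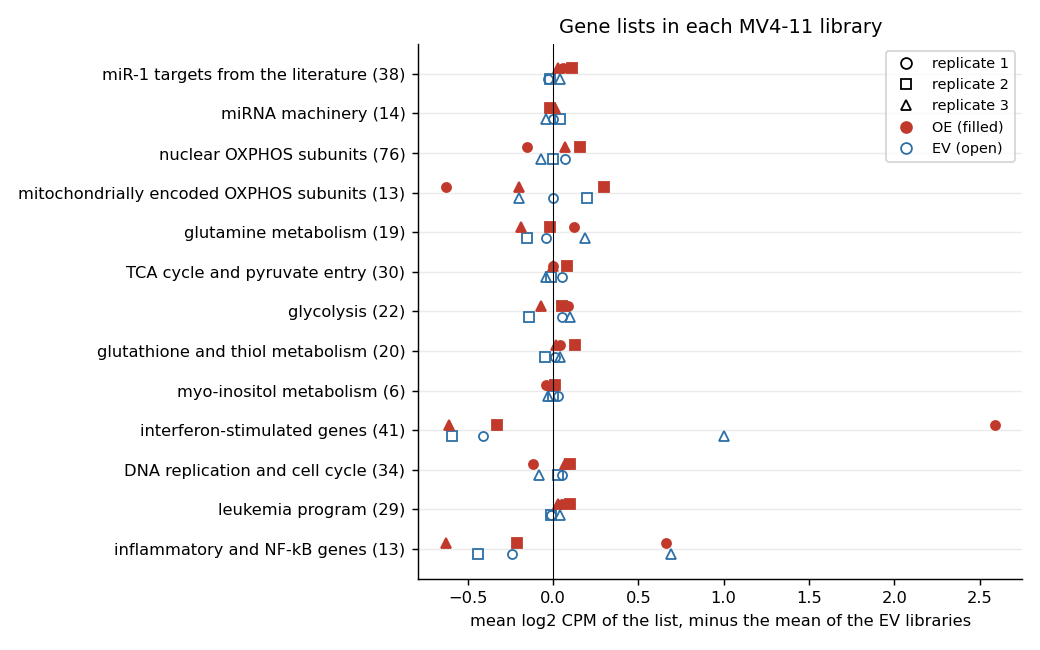
Mean log2 CPM of each gene list in every MV4-11 library, minus the mean of the 3 EV libraries, with the number of tested genes in brackets, OE as filled red points and EV as open blue points. For most lists the OE and EV points overlap within 0.2, while interferon-stimulated genes lie far to the right in OE 1 and, less so, in EV 3.

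Interferon-stimulated genes, the antiviral program that type I and type II interferons induce, varied mostly between libraries. Of the 41 tested, 39 had a positive fold change (median 1.01), none was called by edgeR or DESeq2 or had an unadjusted p under 0.05 in edgeR, and none separated the groups. Summed over the list, their level was 1940, 670 and 614 CPM in OE and 637, 604 and 921 CPM in EV. STAT2, a transcription factor of the response, was highest in the same libraries of each group as the sum, with 143 CPM in OE 1, 101 CPM in EV 3 and 73.2 to 79.9 CPM in the other 4. BST2, an antiviral membrane tether, did not follow this order, at 81.1, 82.4 and 70.5 CPM in OE and 85.2, 76.5 and 80.8 CPM in EV. Without OE 1, 35 of 41 had a negative fold change (median −0.306), and without OE 1 and EV 3 together 22 of 40 had a positive one (median 0.0372). The 13 inflammatory and NF-κB genes were also highest in OE 1 and EV 3, with a mean log2 CPM of 3.92 and 3.95 there and of 2.63 to 3.05 in the other 4 libraries. TNFAIP3, an inhibitor of NF-κB, stood at 49.1, 33.7 and 26.1 CPM in OE and 36.7, 30 and 59.6 CPM in EV, and 4 of the 13 had a positive fold change (median −0.0573). That number was 1 of 13 without OE 1 (median −0.482), 12 of 13 without EV 3 (median 0.0993) and 5 of 13 without both (median −0.0819). None was called by edgeR or DESeq2, and 1 had an unadjusted p under 0.05 in edgeR (7.69%, beside 5.9% of all tested genes).

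Replication and cell cycle genes had 25 of 34 positive fold changes with a median of 0.0221. None was called by edgeR or DESeq2, and none had an unadjusted p under 0.05 in edgeR. MKI67, the proliferation marker, stood at 756, 995 and 925 CPM in OE and at 941, 1000.0 and 842 CPM in EV, and MCM4, a subunit of the replicative helicase, at 678, 798 and 811 CPM and 762, 750 and 666 CPM. Both were lowest in OE 1 and EV 3. Without OE 1, 32 of 34 were positive (median 0.0857), without EV 3, 14 of 34 (median −0.00942), and without both, 29 of 34 (median 0.0459).

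The leukemia program list of 29 tested genes had 20 positive fold changes (median 0.0423) and none called by edgeR or DESeq2, with 4 at an unadjusted p under 0.05 in edgeR (13.8%, beside 5.9% of all tested genes). MYB, a factor of hematopoietic progenitors, stood at 728, 709 and 716 CPM in OE and at 677, 688 and 700 CPM in EV (edgeR FDR 0.972). AZU1, an azurophil granule protein gene, stood at 656, 706 and 703 CPM in OE and at 640, 565 and 599 CPM in EV (log2 fold change 0.20, edgeR FDR 0.139). AZU1, PRTN3 and ELANE, 3 adjacent granule protein genes on chromosome 19, were called when OE 1 and EV 3 were left out together, with log2 fold changes of 0.229, 0.289 and 0.255 and FDRs of 0.00579, 0.00224 and 0.0219. Over all libraries PRTN3 and ELANE were not called (FDR 1 and 0.828). PRTN3, ELANE and MPO, the myeloperoxidase gene, are named after their values were seen. MPO stood at 8.36, 9.55 and 10.1 CPM in OE and at 7.82, 7.67 and 6.48 CPM in EV (edgeR FDR 0.384). LYZ, the lysozyme gene, ranged from 528 CPM in EV 3 and 538 CPM in OE 1 to 1250 CPM in OE 3.

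To ask whether the effect differed from that in Molm-14, the difference of the 2 effects was tested in the same model, with no control library shared. The difference was called for 8 genes, 0.0456% of those tested, and all 8 were among the 31. For MPEG1 the effect in MV4-11 minus that in Molm-14 was −1.28 (SE 0.167, edgeR FDR 0.00186), and the gene stood at 4.41 CPM in Molm-14 OE and 3.85 CPM in Molm-14 EV. C12orf75 stood at 4.31 and 4.19 CPM in Molm-14, CPVL at 29.5 and 28.3, WASF1 at 44.1 and 41.1, and SIX2 at 8.44 and 9.77, so 4 of these 5 genes had small positive fold changes there. CNKSR2, higher in MV4-11 OE, had a log2 fold change of −0.21 (SE 0.0936) in Molm-14, where it stood at 24.1 and 27.8 CPM. Of the 31 genes 27 had a Molm-14 log2 fold change of less than 0.25 in size, 2 of them because Molm-14 had no counts.

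Some MV4-11 genes could not be compared, because Molm-14 had too few counts. DIPK1C and FAM30A had 0 counts in all Molm-14 libraries, MAGED1 had 2 in OE and 2 in EV, and GLT1D1 had 0 and 1. PPP1R3A had 1 count in Molm-14 OE and 13 in Molm-14 EV, 10 of them in Molm-14 EV 3. On these few counts its fold change had the same sign as in MV4-11 (log2 fold change −3.35, SE 1.08), and it was not called. GSN had log2 fold changes of the same sign in both lines, 0.41 in MV4-11 and 0.31 (SE 0.0769) in Molm-14, where it was not called, with a difference of 0.10 (SE 0.109, edgeR FDR 1). MIR133A1HG was the only gene called in Molm-14 OE (0.0057% of genes tested), at 2.60 CPM in OE and 0 counts in EV.

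**Figure D4:**
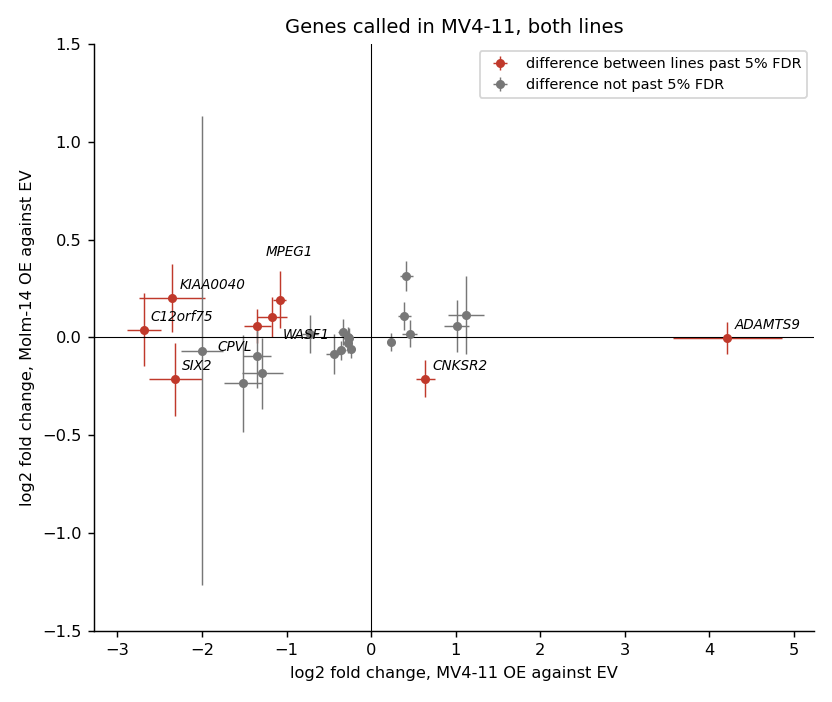
Log2 fold change of OE against EV in Molm-14 (vertical axis) against that in MV4-11 (horizontal axis) for 26 of the 31 called genes, with standard errors as bars; MIR133A1HG, DIPK1C, FAM30A, GLT1D1 and PPP1R3A, with 0 or 1 counts in at least 1 Molm-14 group, are left out. Red points are the 8 genes whose effect differed between lines at a 5% FDR, and most points lie near 0 on the Molm-14 axis, with MAGED1 (2 counts in each Molm-14 group) carrying the longest bar.

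Called genes were also set against their neighbours on the chromosome. Of the 183 tested genes among the 3 nearest on each side that were not called, 21 (11.5%) had an unadjusted p under 0.05, beside 5.9% of all tested genes, and 96 of 183 had a fold change of the same sign as the called gene. The 21 include MRPS6 and DTX4, which overlap SLC5A3 and MPEG1 and may share reads with them (unadjusted edgeR p 0.00955 and 0.0182). Beside DIPK1C, CNDP2 had a log2 fold change of −0.21 (edgeR FDR 0.38), and beside SIX2, LINC01833 had −1.20 (edgeR FDR 0.571). Beside CNKSR2, RPS6KA3 had −0.18 (edgeR FDR 0.186), the opposite sign of CNKSR2. CNDP2, LINC01833 and RPS6KA3 are named after their values were seen.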

How the data were processed

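Total RNA depleted of ribosomal RNA was sequenced from 12 libraries of the overexpression experiment. The deposited counts are raw whole-number counts per Ensembl gene. The authors trimmed reads with cutadapt 1.16, removed optical duplicates, aligned reads to GRCh38 (Ensembl release 102) with STAR 2.7.6a in two-pass mode and counted genes with featureCounts 1.6.3. Whether counting used the strand is not given in the sources used here, so overlapping genes may share reads. Groups came from the sample labels.

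Counts were filtered (filterByExpr), TMM-scaled and fitted with edgeR 4.0.16 (R 4.3.3, robust quasi-likelihood) with 1 mean per group over all 12 libraries. The Benjamini-Hochberg adjustment ran over all tested genes, and an FDR under 5% was called. CPM are counts scaled to TMM-adjusted library totals. DESeq2 1.42.0, other scalings and filters, MV4-11 alone, a replicate block and fits without libraries were alternatives. Code was tested on simulated data. GENCODE release 44 gave positions and canonical 3′ UTRs and matched 60419 of 60675 gene IDs.

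Named genes are the called genes, the manipulated genes, those named by the study, and up to 4 abundant members per list (6 for interferon-stimulated genes), exceptions being stated; 1 called gene and 1 list member are counted but not reported here. Members and lists were chosen with earlier results of these data known. Replicate pairs differed by more than sampling noise (chi-square per degree of freedom 5.09 to 15.8 in MV4-11 and 2.09 to 3.05 in Molm-14) and were all kept.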

Additional observations from a re-analysis of the deposited data

Results flagged for a closer look

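The effect of OE differed between MV4-11 and Molm-14 for 8 genes at a 5% FDR in edgeR, which is what marked them for a closer look. On the log2 scale, the effect in MV4-11 minus that in Molm-14 was −1.28 for MPEG1, −2.73 for C12orf75, −1.41 for CPVL, −2.10 for SIX2, −1.28 for WASF1, 4.21 for ADAMTS9, −2.55 for KIAA0040 and 0.849 for CNKSR2. In MV4-11, 6 of them were called lower and ADAMTS9 and CNKSR2 higher. The value for ADAMTS9 rests on 25 counts against 1 in MV4-11 and depends on the prior count of the fit, and the part of reads from Molm-14 libraries in these counts was not tested. That for KIAA0040 rests on 7 counts against 38. ADAMTS9 and KIAA0040 passed the expression filter over all 12 libraries but not over the MV4-11 libraries alone. In MV4-11 they were thus tested only because Molm-14 libraries counted in the filter.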

How the results depend on the processing

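The number of genes called in MV4-11, 31, became 68 with DESeq2, 123 with no expression filter, 9 with the MV4-11 libraries fitted alone, 15 with the replicate block and 76 without OE 1 and EV 3 together, and it ran from 12 to 47 over the fits that left out 1 library. With RLE scaling it was 31, and with a mean CPM filter it was 32. Of the 31, 30 were called in the same direction with DESeq2, 13 with the replicate block and 8 with MV4-11 alone. The number of genes whose effect differed between lines, 8, became 13 with DESeq2, 33 with no filter, 2 with the replicate block and 26 without OE 1 and EV 3 together, and it ran from 5 to 9 when 1 library was left out.

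Replicate numbers did not pair the libraries, since deviations of same-numbered OE and EV libraries correlated at −0.191, 0.013 and −0.377, while OE 1 and EV 3 correlated at 0.404.

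List medians moved when 1 library was left out, from −0.0268 to 0.0124 for miRNA machinery, from 0.00386 to 0.103 for glutathione and thiol metabolism, from 1.92e-06 to 0.0754 for myo-inositol metabolism, from −0.306 to 1.43 for interferon-stimulated genes and from 0.0164 to 0.0766 for the leukemia program. Without OE 1 and EV 3 together the last was 0.0737. Other medians changed sign when 1 library was left out, to −0.0248 for nuclear OXPHOS subunits (OE 2), 0.0709 for mitochondrially encoded subunits (OE 1), −0.0675 for glutamine metabolism (OE 1), −0.0188 for replication and cell cycle (OE 2), −0.00154 for glycolysis (EV 2), −0.00401 for miR-1 targets from the literature (EV 2) and 0.0993 for inflammatory genes (EV 3). Medians of the 5 site classes moved by less than the spread between libraries under every alternative. With 1 library left out they ran from 0.00354 to 0.0121 for 8mer genes and from 0.00187 to 0.0297 for genes with no match. The lowest value for genes with no match was below the lowest for 8mer genes, so the order of these classes was not the same in every fit. The cause of these shifts was not tested. Depth limits genes with few counts, such as ADAMTS9, FAM30A and KIAA0040, and 3 counts amount to 0.148 to 0.186 CPM in these libraries.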
